A study of Mus musculus with 5 samples.

Results

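The urea cycle enzymes are described here by 5 genes, Nags, Cps1, Otc, Ass1 and Asl, in Ago HITS-CLIP data of developing mouse liver. The members were found by their symbols among the genes listed for each Ago cluster, and they are 5 of the 14348 genes with at least 1 cluster in an mRNA region, that is in the coding sequence (CDS), the 3′UTR or the 5′UTR. In Ago HITS-CLIP, RNA is crosslinked to the Ago proteins by ultraviolet light in the tissue, pulled down with antibodies and sequenced, so that mRNA stretches held by Ago appear as clusters of reads. Livers of C57BL/6 mice came from 3 embryonic stages (e12.5, e15.5 and e18.5), from pups on postnatal day 7 (P7) and from adults, with no genetic change or treatment named in the labels, and all were exposed 3 times to 254 nm light at 0.2 J/cm2. An Ago2 pull-down was made at every stage, and an Ago1 antibody was added for the P7 and adult livers, so that this antibody cannot be told apart from postnatal life. Per the study's methods the Ago2 experiments had 2 biological replicates, and the study lists a second e18.5 replicate, but each stage has 1 deposited table with no replicate label, so no difference between stages has a replicate check and no p-value is given.

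The urea cycle turns toxic ammonia into urea, and the full cycle runs in the hepatocytes around the portal vein. N-acetylglutamate made by Nags switches on Cps1, which joins ammonia and bicarbonate into carbamoyl phosphate in the mitochondria, where Otc adds it to ornithine to give citrulline. In the cytosol Ass1 joins citrulline to aspartate, and Asl splits the product into arginine and fumarate, before urea is released from arginine. A miRNA guides Ago to an mRNA mainly through its seed, bases 2 to 8 from its 5′ end, which pairs with a complementary stretch of the mRNA.

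The listed sites in the most read clusters of these mRNAs lay in coding exons. The stretches below are 22 bases of GRCm38 (mm10), read 5′ to 3′ along the mRNA, and the capitals mark the bases that match the seed, with an A opposite miRNA base 1 where there was one. The sites of miR-122-5p, an abundant hepatocyte miRNA, are shown because they lay in 2 of the most read clusters of Cps1. The first lies in exon 10 of Cps1 at chr1:67157821-67157827 and the second in exon 20 of Cps1 at chr1:67176986-67176991, both on the plus strand.
Cps1 exon 10: atgctctggacaacACACTCCc
Cps1 exon 20: atctgtggatgggttCACTCCc

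The stretch of exon 10 is a match of 7 bases, and that of exon 20 is a match of 6 bases. The next stretches carry sites of other abundant miRNAs, those of miR-27 and miR-378a-3p in the most read clusters of their mRNAs and that of miR-144-3p in a less read cluster. The miR-27 site lies in exon 13 of Cps1 at chr1:67162660-67162666, the miR-144-3p site in exon 18 of Cps1 at chr1:67172801-67172808 and the miR-378a-3p site in exon 5 of Ass1 at chr2:31481033-31481039, all on the plus strand.
Cps1 exon 13, miR-27: actcgggatctcaagCTGTGAA
Cps1 exon 18, miR-144-3p: cccacttccatggaATACTGTA
Ass1 exon 5, miR-378a-3p: ctggcctgctgtccAGTCCAGt

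The mature miRNAs that belong to these sites are printed with the seed in capitals, as RefSeq gives them on GRCm38.p6. A sequence was taken for 6 of the 8 miRNAs that have a named site, of which 3 are shown. miR-27a-3p and miR-27b-3p have the same seed and differ near their 3′ end, so that both are listed for the site in exon 13 of Cps1.
miR-27a-3p: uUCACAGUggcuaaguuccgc
miR-27b-3p: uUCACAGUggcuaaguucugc
miR-144-3p: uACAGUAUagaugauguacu

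The 5 libraries held between 13008703 and 44867326 summed cluster reads. The deposited read number of a cluster is its highest read number, with a lowest listed value of 5, and it was summed over the clusters of a gene and given as reads per 1000000 of the table's summed cluster reads (rpm). Clusters over miRNA genes took 53.5% of these reads at e12.5 and 79.9% in the adult, and mRNA clusters took between 13.5% in the adult and 30.0% at e18.5. A second scaling, relative to the reads of mRNA clusters alone, is therefore given beside the first where it changes a count. Each of the 3 embryonic tables contains 2 lists of clusters that the labels do not describe, and their reads were summed. Clusters of fewer than 5 reads are not listed, so a gene without a cluster is not shown to be without reads. Intervals here cover counting error only.

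Together the 5 mRNAs held 29.2 rpm at e12.5, 51.8 rpm at e15.5, 776 rpm at e18.5, 681 rpm at P7 and 1227 rpm in the adult liver. Their level was thus low in both earlier fetal libraries and high in the last fetal library and after birth. The clusters behind these sums numbered 23, 24, 86, 111 and 115 in order of stage, counted in mRNA regions with overlapping clusters of 2 lists joined. Per 10000 mRNA clusters of all genes they were 2.42, 5.32, 20.3, 13.9 and 21.5. Cps1 gave 13.4%, 59.7%, 86.8%, 79.5% and 79.1% of the summed reads in the same order, so from e18.5 on the sum followed Cps1.

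**Figure D1:**
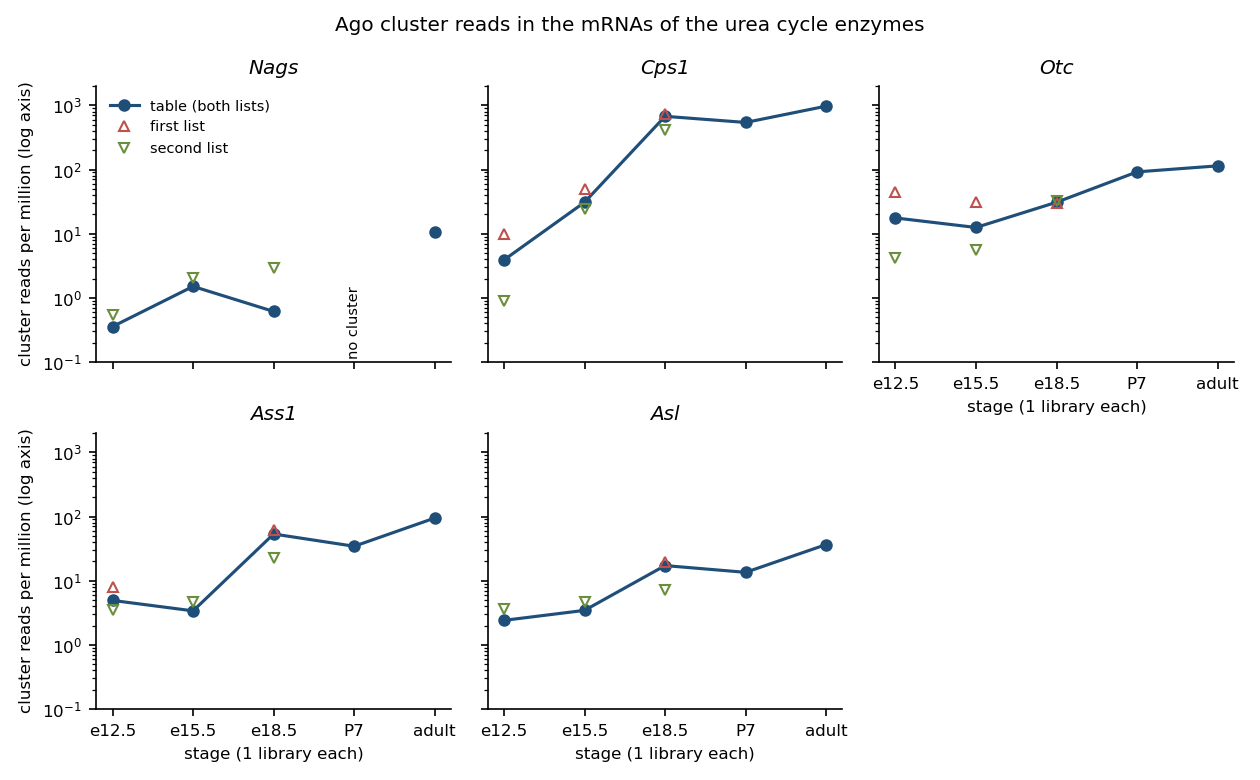
Cluster reads in rpm on a log axis for each urea cycle enzyme at the 5 stages, 1 library per stage, with the 2 lists of the fetal tables as open triangles. Cps1 rises from 3.90 at e12.5 to 971 in the adult, Otc starts highest at e12.5 with 17.6, and Nags has no cluster at P7.

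Nags, which makes the activator of Cps1, was the least bound member. It had 0.357 rpm at e12.5, 1.51 rpm at e15.5, 0.615 rpm at e18.5, no cluster at P7 and 10.8 rpm in the adult. Each fetal library held a single Nags cluster of 8 to 25 reads, each at another position, while the adult library held 8 clusters with 268 reads.

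Cps1, the entry enzyme of the cycle, had 3.90 rpm at e12.5, 30.9 rpm at e15.5, 674 rpm at e18.5, 541 rpm at P7 and 971 rpm in the adult. The step between e15.5 and e18.5 was the largest between neighbouring stages, and e18.5, P7 and adult lay within 2-fold of each other. The number of its mRNA clusters went the same way, from 2 and 13 in the earlier fetal libraries to 60, 65 and 58 in the later ones, and the mean read number per cluster before joining was 87.5, 34.1, 102, 137 and 417 in order of stage. The summed span of the listed sites was 30, 255, 2003, 2518 and 3408 nt, so between P7 and adult the reads per cluster moved more than the number or the span of clusters.

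Otc, which makes citrulline, had 17.6 rpm at e12.5, 12.53 rpm at e15.5, 30.9 rpm at e18.5, 91.9 rpm at P7 and 114 rpm in the adult. It was the most read member at e12.5, but 74.0% of its reads there came from 1 position in exon 6. Within the e12.5 table, one list gave 44.8 rpm for Otc and the other 4.16 rpm, a wider gap than between the levels of e12.5 and e18.5.

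Ass1, which makes argininosuccinate, had 4.93 rpm at e12.5, 3.39 rpm at e15.5, 53.4 rpm at e18.5, 34.4 rpm at P7 and 94.7 rpm in the adult. Asl, which splits it, had 2.41, 3.45, 17.2, 13.5 and 36.6 rpm at the same stages. Both cytosolic enzymes were low at e12.5 and e15.5, higher at e18.5 and P7 and highest in the adult. Their mean read number per cluster in the adult was 131 for Ass1 and 50.6 for Asl, against 24.6 and 27.0 at e12.5.

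Cps1, Otc, Ass1 and Asl were at least 2-fold higher in the adult than in the e12.5 library, against 18.2% of the 10739 genes with at least 5 rpm summed over the libraries. Nags was higher by that fold too, but it passed this filter only through its adult level, so its call carries no weight. The log2 ratio of adult over e12.5, taken after 1 rpm was added to both, was 7.63 for Cps1, 4.01 for Ass1, 3.46 for Asl, 3.12 for Nags and 2.63 for Otc. The median over the 10739 genes was -0.84, so that relative to it the members stood between 3.47 (Otc) and 8.47 (Cps1) higher. All 5 passed the filter on low values, Nags through its adult level. Relative to mRNA cluster reads the ratios were higher, from 3.47 for Otc to 8.67 for Cps1, with a median over genes of -0.37 and 28.6% of genes at least 2-fold higher. In bulk tissue, fewer hepatocytes and less RNA per hepatocyte cannot be told apart, and neither can the amount of an mRNA and the share of it that is held by Ago.

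**Figure D2:**
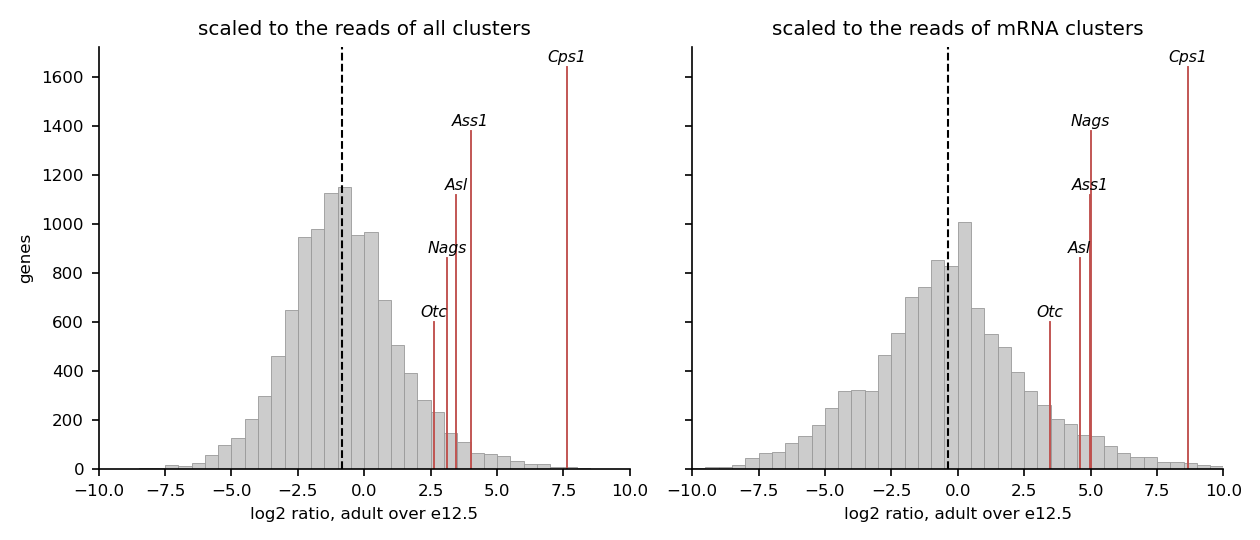
Number of genes by log2 ratio of adult over e12.5 (grey bars, 10739 genes, 1 rpm added, dashed line at the median) under both scalings, with the 5 urea cycle enzymes as red lines whose height has no meaning. The members stand to the right of the median in both panels, Otc nearest to it and Cps1 farthest.

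The difference was not spread evenly over development. From e12.5 to e15.5, Cps1 was at least 2-fold higher, with a log2 ratio of 2.70, against 19.0% of all genes, and the other 4 members lay between -0.46 and 0.89. Relative to mRNA cluster reads, Nags was also 2-fold higher at this step, with a ratio of 1.27 and 16.2% of all genes higher by that fold. From e15.5 to e18.5, 4 of the 5 members were at least 2-fold higher, against 30.8% of all genes. The log2 ratios were 4.40 for Cps1, 3.63 for Ass1, 2.03 for Asl and 1.24 for Otc, while Nags gave -0.64 on 25 and 8 reads and, relative to mRNA cluster reads, was just 2-fold lower, as were 30.6% of all genes. These comparisons share the e15.5 library.

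Across birth, from e18.5 to P7, 1 of the 5 members was at least 2-fold higher in rpm, near the share over all genes. Otc was 1.54 higher on the log2 scale, as were 24.1% of all genes by at least 2-fold, and 0 of the 5 were at least 2-fold lower, against 28.9% of all genes. Cps1, Ass1, Asl and Nags gave ratios of -0.32, -0.62, -0.33 and -0.69, beside a median over all genes of -0.20. Relative to mRNA cluster reads, the sign turned for Cps1 (0.24) and Asl (0.20), so that their direction across birth depends on the scaling. Nags was 2-fold lower on that scale, with 21.9% of all genes lower by that fold. It had 8 reads at e18.5 and no listed cluster at P7. Since clusters of fewer than 5 reads are not listed, its ratios across birth and this call carry no weight. From P7 to adult, Nags, Ass1 and Asl were at least 2-fold higher, with log2 ratios of 3.56, 1.43 and 1.37, against 7.10% of all genes, and Cps1 with 0.84 and Otc with 0.31 were not. Nags has no listed cluster at P7 and passed the filter through its adult level, so its ratio is set by the 1 rpm added and its call carries no weight. Relative to mRNA cluster reads Cps1 was 2-fold higher too, with a ratio of 1.45, against 17.0% of all genes.

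Set per kb of mRNA, the scale on which genes can be compared, the order in the adult was Cps1 with 175, Ass1 with 55.8, Otc with 49.2, Asl with 20.1 and Nags with 5.31 rpm per kb. At e12.5 the order differed, with Otc at 7.58, Ass1 at 2.90, Asl at 1.32, Cps1 at 0.702 and Nags at 0.176 rpm per kb. Among the genes with reads and a length in the annotation, Cps1 was ranked 7735 of 11164 at e12.5 and 28 of 9652 in the adult. The adult ranks of the other members were 115 for Ass1, 176 for Otc, 450 for Asl and 1197 for Nags. Which neighbours in these orders differ cannot be said without replicates, and the closest neighbours were Ass1 and Otc in the adult and Asl and Cps1 at e12.5.

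Markers of other cells changed over the same libraries. The 12 hepatocyte markers, such as Alb and Apoa1, summed to 1041 rpm at e12.5, 3014 rpm at e15.5, 7332 rpm at e18.5, 8953 rpm at P7 and 10518 rpm in the adult, with Tat at 0 in both earlier fetal libraries and Pck1 at 0 at e15.5. The 10 erythroid markers, among them the globins, summed to 65941, 88346, 96037, 34471 and 1633 rpm in the same order, with 9 of 10 above 0 until P7 and 6 of 10 in the adult, where Slc4a1, Klf1 and Gata1 were at 0. Hba-a1 and Hba-a2 had identical values in every library, and with 1 of them left out the sums were 36147, 51233, 51089, 18229 and 884 rpm. Epb42 was at 0 in every library. Markers of other blood cells summed to between 36.4 and 256 rpm, endothelial markers to between 11.7 and 197 rpm, stellate and mesenchymal markers to between 11.9 and 92.9 rpm, and cholangiocyte markers to between 0 and 18.7 rpm. The part of the cell make-up in the change of the members was not tested. Per 1000 hepatocyte marker reads, the 5 members had 28.0, 17.2, 106, 76.1 and 117 reads in order of stage. On that scale Cps1 went from 3.75 at e12.5 to 92.3 in the adult, whereas Otc had 16.9 at e12.5 and 10.8 in the adult.

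Most clusters of the urea cycle mRNAs lay in the coding sequence at every stage. From e12.5 to adult, 21 of 23, 24 of 24, 78 of 86, 96 of 111 and 102 of 115 of their mRNA clusters were in the CDS. These were 91.3% (Wilson 95% interval 73.2 to 97.6), 100% (86.2 to 100), 90.7% (82.7 to 95.2), 86.5% (78.9 to 91.6) and 88.7% (81.6 to 93.3). Over all genes the share was 61.3%, 62.8%, 63.4%, 65.5% and 72.9%, below the interval of the members at each stage. Each interval treats clusters as independent draws, although many lie on the same mRNA. The intervals are thus no test of the members against all genes, jointly or gene by gene. Cps1 held 65 of the 111 clusters at P7 and 58 of the 115 in the adult, so the joint share leans on it. Taken gene by gene, the interval of Cps1 lay above the share of all genes from e15.5 on, and those of the other genes did so only for Otc at e12.5, Ass1 at e18.5 and Asl at P7. In the adult, Ass1 had 72.2% (49.1 to 87.5). The coding sequence made up 72.8% of the summed mRNA length of the 5 members, from 45.8% in Otc to 81.0% in Cps1, and a median of 50.1% over 10222 of the tested genes. How far this length accounts for the share of clusters was not tested.

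**Figure D3:**
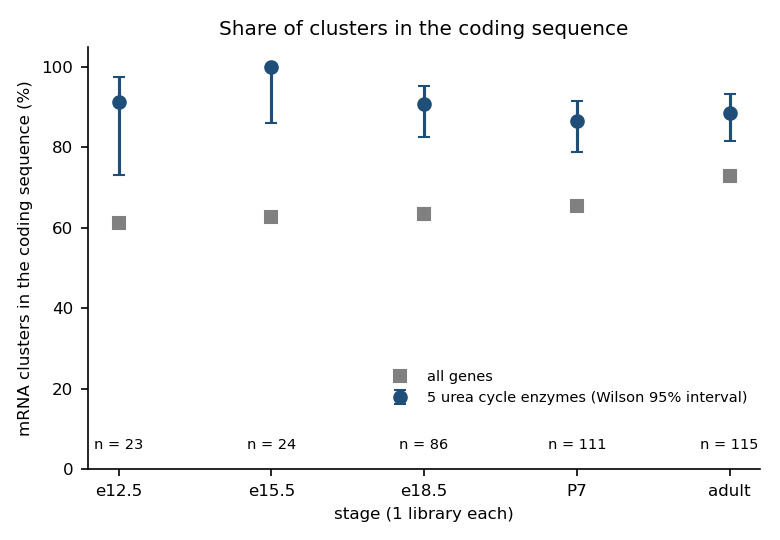
Share of mRNA clusters that lie in the coding sequence, in percent, for the 5 urea cycle enzymes (points with Wilson 95% intervals, number of clusters above the axis) and for all genes (squares), 1 library per stage. The members stay between 86.5% and 100%, while the share over all genes goes from 61.3% to 72.9%.

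Few clusters lay in the 3′UTRs. There were 2, 0, 5, 12 and 10 from e12.5 to adult, or between 0 and 10.8% of the members' mRNA clusters, where all genes had between 29.7% and 41.5%. The P7 clusters were 6 of Cps1, 4 of Otc and 2 of Ass1, and no library listed a 3′UTR cluster of Asl or Nags. The 1125 nt 3′UTR of Otc, the longest of the set, held 2 clusters at P7 and 1 in the adult, and the other 2 Otc clusters listed as 3′UTR at P7 lay outside the exons of the transcript used. Clusters listed as intronic only numbered 6, 3, 7 and 12 from e12.5 to P7 and 54 in the adult, where Ass1 had 27 and Cps1 had 23.

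**Figure D4:**
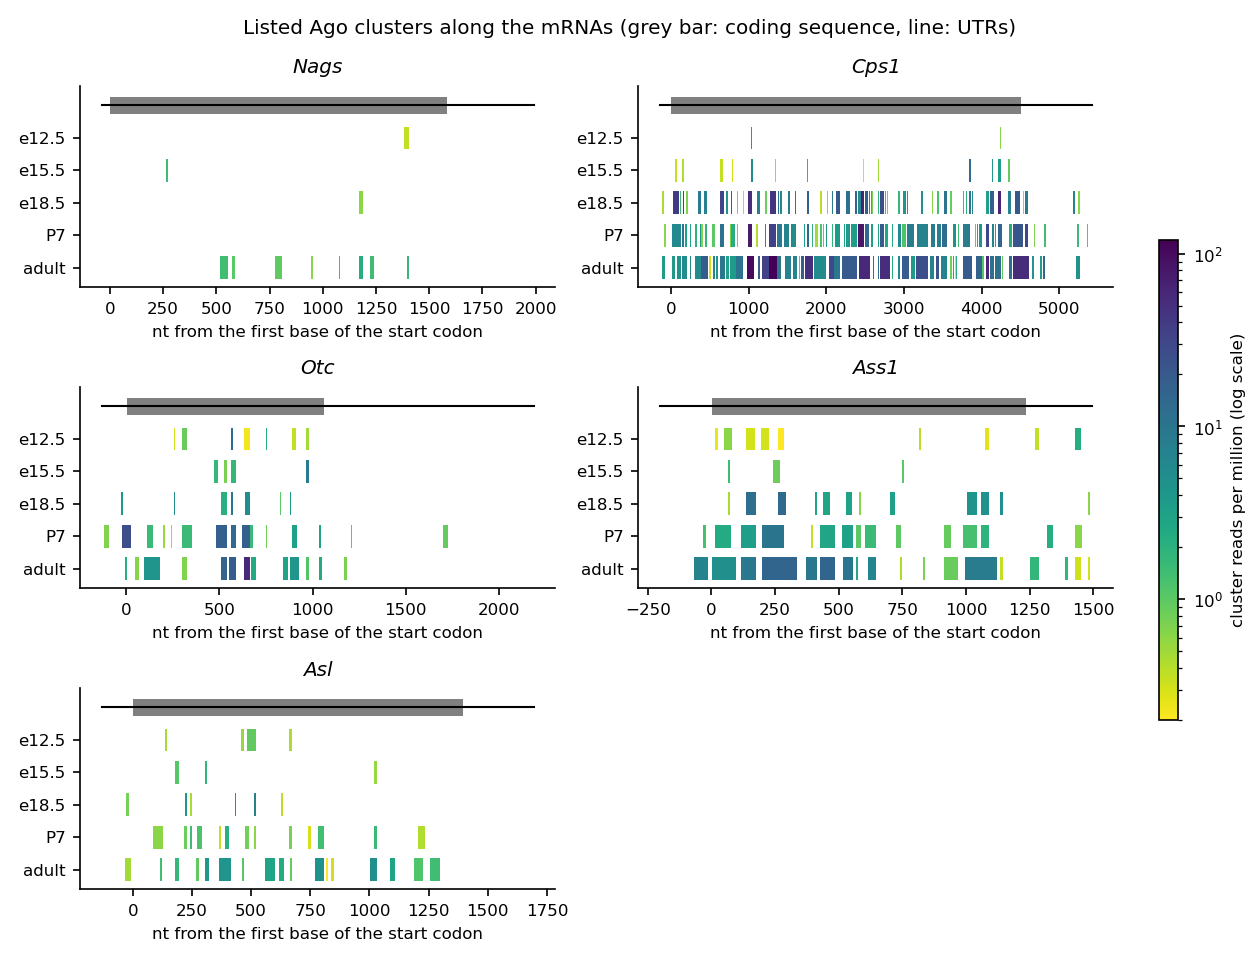
Listed Ago clusters along the 5 mRNAs by stage, in nt from the first base of the start codon, with the coding sequence as a grey bar, the UTRs as a line and colour giving rpm on a log scale (very narrow clusters are widened to be visible). Clusters of Cps1 run along the whole coding sequence from e18.5 on, and those of Otc leave most of its 3′UTR empty.

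The spans of the listed sites covered the largest part of each coding sequence in the adult. For Cps1 they covered 0.667%, 5.27%, 31.9%, 52.4% and 68.7% of the 4500 coding bases in order of stage. In the adult they covered 54.9% of Ass1, 35.0% of Otc, 26.8% of Asl and 9.42% of Nags, while at e15.5 they covered less of these 4 sequences than at e12.5. The e15.5 library held fewer summed cluster reads, 16519549 against 44867326 at e12.5. Since clusters of fewer than 5 reads are not listed, depth and stage cannot be told apart in this comparison. Adult Cps1 clusters lay along its whole length, with 18, 15 and 15 positions in the first, middle and last part of the coding sequence when it was cut into 3 equal parts. No mRNA cluster of a member was also listed under another gene.

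Joined over the stages, the 5 mRNAs had 139 cluster positions, of which 48 were found at 1 stage, 35 at 2, 35 at 3, 16 at 4 and 5 at all 5. Cps1 had 60 of these positions, 37 of them at 3 or more stages, whereas Asl had 3 of 25 and Nags 0 of 9 at 3 or more. Over all stages the spans covered 77.0% of the coding sequence of Cps1, 38.9% of that of Asl and 10.8% of that of Nags. No such count over all genes is given, so these numbers are not read as a trait of the members. The positions found at all 5 stages were in exons 10 and 36 of Cps1, exon 6 of Otc and exons 3 and 5 of Ass1, all in the CDS. At the position in exon 36 of Cps1 (chr1:67228247-67228340), the level was 0.602, 3.39, 60.7, 17.1 and 12.7 rpm in order of stage, highest at e18.5, unlike the level of the whole gene. At the exon 6 position of Otc (chrX:10303269-10303307) it was 13.0, 1.69, 9.92, 13.6 and 18.8 rpm. At the exon 5 position of Ass1 (chr2:31480994-31481134) it was 0.423, 0.847, 13.8, 10.2 and 15.4 rpm.

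The leading position of a gene changed between stages. For Cps1 it was that in exon 10 at e12.5, with 84.6% of the reads of the gene, that in exon 32 at e15.5, that in exon 20 at e18.5 and P7, and that in exon 13 in the adult, which held only 11.8% of the adult reads. For Otc it was a position across the start codon at P7 (chrX:10252409-10252459), which had 3.77 rpm at e18.5, 26.4 rpm at P7 and 2.13 rpm in the adult and no cluster at e12.5 or e15.5. In the adult it was another position in exon 6 (chrX:10303340-10303383) with 58.0 rpm, or 50.9% of the Otc reads. Neither of these 2 exon 6 positions of Otc had a listed site of a miRNA among the 20 with the highest number in any library.

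Both miR-122-5p sites of Cps1 printed above were read mainly from e18.5 on. The values given here and below for sites are the read numbers listed with the site itself, which can be lower than the sum over the joined cluster position around it. They are read numbers of a cluster, so the same reads can be listed with sites of several miRNAs. In the adult, Cps1 had 650 listed sites of 345 miRNAs in 58 mRNA clusters. The values thus do not measure binding by the miRNA named. The site in exon 10 had 148, 94, 676, 1254 and 2466 reads from e12.5 to adult, or 3.30, 5.69, 52.0, 76.0 and 99.1 rpm, and was found in all 5 libraries. The exon 20 site had 0, 5, 824, 1336 and 1476 reads, or 59.3 rpm in the adult after 81.0 rpm at P7. The exon 10 site was highest in the adult under both scalings, whereas the exon 20 site was higher at P7 in rpm but not relative to mRNA cluster reads, with 396 at P7 and 440 in the adult per 1000000.

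The miRNA itself is given in the tables by a number that they do not explain, taken here as its read number. By that number miR-122-5p had 1.44%, 4.33%, 9.20%, 12.3% and 11.2% of the total from e12.5 to adult. The deposited conservation score, which runs from 0 to 1, was 0.874 and 0.593 for those of Cps1 in exons 10 and 20.

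**Figure D5:**
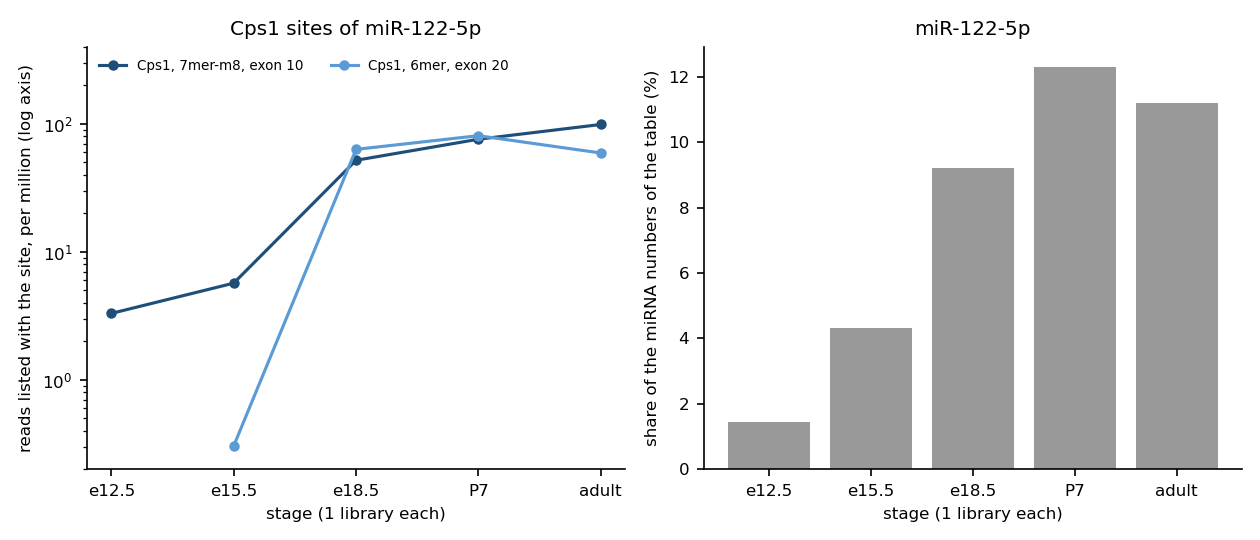
Left, rpm (log axis) of the read numbers listed with the miR-122-5p seed matches in exons 10 and 20 of Cps1, by stage with 1 library each, where a missing point is a stage without the site. Right, share of miR-122-5p in the miRNA numbers of each table in percent, which rises from 1.44% at e12.5 to 12.3% at P7 and is 11.2% in the adult.

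Sites of other miRNAs in the coding exons were read mainly at later stages. The miR-27 site of Cps1 exon 13 had 0, 8, 521, 592 and 2851 reads in order of stage, and at 115 rpm its cluster was the highest member cluster of the adult library. A 6-base site of miR-29a-3p in exon 6 of Asl was listed in the adult alone with 91 reads, and miR-29a-3p itself had 0.0529%, 0.0708%, 0.0737%, 0.218% and 1.61% of the miRNA numbers in order of stage. In Ass1 exon 5, the miR-378a-3p site was listed at P7 and in the adult alone, with 27 and 198 reads, inside the position found at all 5 stages, which had 169 and 384 reads in these libraries.

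A let-7 match of 7 bases in exon 12 of Cps1 (chr1:67160912-67160918) had 11, 81 and 847 reads at e18.5, P7 and adult. miR-142a-3p and miR-144-3p, which are abundant in blood cells, had 1 match of at least 7 bases each in Cps1. The miR-142a-3p match in exon 38 (chr1:67230311-67230317) had 18, 354 and 879 reads at e18.5, P7 and adult, within a position of 397, 842 and 1354 reads. The 8-base match of miR-144-3p in exon 18 had 176, 46 and 155 reads, or 13.5, 2.79 and 6.23 rpm, within a position of 270, 64 and 223 reads. In the same libraries miR-142a-3p had 23.9%, 8.88% and 4.34% of the miRNA numbers, and miR-144-3p had 9.58%, 1.97% and 1.54%. miR-451a had no listed site in any member.

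The number of miRNAs with a listed site was higher from e18.5 on than in both earlier fetal libraries. It was 96, 73, 247, 470 and 426 over the 5 members in order of stage, of which 10, 12, 45, 64 and 73 were among the 100 miRNAs with the highest number in their table. The tables differ in size, with 1250128, 393130, 390768, 761121 and 459112 listed entries in the same order. No count over all genes is given beside these, so they are not read as a trait of the members. Cps1 had the most of the 5 from e15.5 on, with 11, 44, 210, 383 and 345 miRNAs. The coding sites of the members resembled those of all genes in seed type: matches of 6 bases made up between 47.0% and 55.3% of them, against 51.7% to 52.8% of all coding sites. Their median conservation score was 0.997, 0.962, 0.980, 0.983 and 0.991 in order of stage, and that of all coding sites 0.982, 0.986, 0.971, 0.960 and 0.947. The members' median was thus the higher at each stage except e15.5, and the difference was not tested.

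Other genes of nitrogen handling were followed by a list of 20 genes. Of these, 16 had at least 5 rpm in sum, and 10 were at least 2-fold higher in the adult than at e12.5 and 2 lower, against 18.2% and 46.7% of all genes, with a median log2 ratio of 1.80 beside -0.84. Prodh and Car5a, both counted as higher, passed the filter through their adult level alone, so their calls carry no weight in this count. The largest difference was in Gls2, the liver glutaminase, which had 0.267 rpm at e12.5 and 178 rpm in the adult (log2 ratio 7.14). Prodh, which starts proline breakdown, had no listed mRNA cluster at e12.5. Its ratio of 4.21 is set by the 1 rpm added, so its place in this order carries no weight. Oat, which turns ornithine towards glutamate, had a ratio of 4.15. Got1, an aspartate aminotransferase, and Gpt2, an alanine aminotransferase, followed with 3.46 and 3.08. Aldh18a1, which makes proline and ornithine precursors from glutamate, was lower with -2.76, and Odc1, which takes ornithine to polyamines, was lower with -1.54.

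The mitochondrial carriers of the cycle were higher in the adult as well. Slc25a15, the ornithine carrier, had 9.56, 26.9, 14.4, 14.5 and 41.7 rpm in order of stage, and Slc25a13, the aspartate and glutamate carrier, had 4.41, 1.57, 6.38, 24.4 and 28.7 rpm. Glud1 and Glul, which form and use glutamate, were within 2-fold, with log2 ratios of -0.71 and -0.44. Relative to mRNA cluster reads, 12 of the 16 genes were higher and 1 lower, where 28.6% of all genes were higher and 40.2% lower. Prodh and Car5a are again among the 12. Relative to hepatocyte marker reads, 2 were higher and 8 lower, where 5.90% of all genes were higher and 82.9% lower, so the direction depends on the scaling.

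The genes whose course over the 5 libraries was most like the mean of the 5 members were Dcxr, Cgnl1, Lrg1, Klkb1 and Colec12. Likeness was the root mean square difference between log2 values with 1 rpm added, each centred on the gene's own mean, and it was 0.108, 0.251, 0.254, 0.257 and 0.284 log2 units in that order. This order depends on the scaling: relative to mRNA cluster reads their ranks were 80, 1, 263, 12 and 10. Dcxr had no listed mRNA cluster at e12.5 and Lrg1 had none at e12.5 or e15.5, so their likeness rests partly on the 1 rpm added. Cgnl1, which had reads in every library, had 10.9, 23.4, 88.4, 58.3 and 232 rpm. The mean course of the members on that scale was -2.04, -1.42, 0.71, 0.63 and 2.13, and Nags, at -1.20 at P7, and Cps1, at -4.85 at e12.5, departed most from it at those stages.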

How the data were processed

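Ago HITS-CLIP tables of 5 mouse liver libraries, 1 per stage, were analysed, and samples were grouped by the stage in their titles. Per the study's methods, the authors trimmed reads with the FASTX-Toolkit, aligned them to mm10 and to miRBase precursors with Bowtie, grouped overlapping reads into clusters, annotated these with UCSC refGene and Ensembl and searched them for seed matches. Tool versions are not given in the sources used here, and the submitters' processing notes list mm9 beside mm10. The deposited read number is a signal, the highest read number of a cluster, with no scaling. Its column at e12.5 is named for the miRNA target and elsewhere for the peak, and both were taken as the same measure. The deposited conservation value and the free energy are scores whose method is not stated. Whether the 2 lists of a fetal table are replicates is not stated.

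Listed starts were read as counted from 0 and are printed counted from 1: all 1900 member sites then held their seed match in GRCm38, against 567 when read as counted from 1. Exons and lengths are those of GENCODE vM21. A cluster has no deposited extent, so the span of its listed sites was used, and a cluster with several read numbers was given the highest. Reads were summed per gene over clusters in the CDS, 3′UTR or 5′UTR and scaled to the table's summed cluster reads. Ratios are log2 values after adding 1 rpm, and 2-fold was the limit for a count. Clusters of 2 lists, or of several stages, were joined where they overlapped on the same strand. The members and gene lists were chosen with earlier results of these data known. Named were the 5 members; for each, sites of the 20 miRNAs with the highest numbers in the 3 clusters with the most reads; sites of miR-122-5p, let-7, miR-142-3p, miR-144-3p and miR-451a of at least 7 bases, the 2 with most reads for each; up to 6 related genes by size, with further ones named after their values were seen; and the 5 genes of the most similar course. The cluster positions found at all 5 stages, the leading position of each stage, the exon 20 site of Cps1 among the miR-122-5p sites and the carriers were picked out after their values were seen.

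The sums were checked on a simulated pair of tables with 200 genes, where all 400 sums were recovered. Python 3.11.15, pandas 2.3.3, numpy 2.4.6, pysam 0.24.0, samtools 1.23.1 and matplotlib 3.10.9 were used. Alternatives were other scalings, pseudocounts and minimum read numbers, single lists, the highest cluster of a gene, introns and noncoding exons, sites of at least 7 bases, the most abundant miRNAs, another overlap and a fold of 4. The miRNA target sequences of miR-122-5p and miR-378a-3p are shown, and the mature sequences of these miRNAs, and some genes and sites of the lists, are not reported here.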

Additional observations from a re-analysis of the deposited data

How the results depend on the processing

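With 1 library per stage, no setting below stands in for a replicate. No paired analysis was possible because each stage has 1 library. Of 253 values computed under alternatives, 201 kept their direction and their side of the 2-fold limit, their interval or their 1.5-fold range. Some of the 201 could not move, so this number overstates the stability. Keeping only clusters under 1 gene changed nothing because no member mRNA cluster was shared. Counting a cluster once, CDS first, repeats the main share, and single lists leave P7 to adult as it was. Scaling to hepatocyte marker reads reversed the log2 ratio of adult over e12.5 for Otc to -0.63 and took those of Ass1 and Asl to 0.90 and 0.55, while the median of all genes went from -0.84 to -3.48, which is part of how that scaling is built. Under it 2 related genes were higher and 8 lower. The level in the adult was 1001 rpm with the study's library totals, 9113 with mRNA cluster reads, 542 with hepatocyte marker reads, 195 with the highest cluster of each gene and 1288 with introns and noncoding exons. At e12.5 it was 19.3, 125, 130, 19.4 and 37.9 rpm under the same settings, and 62.7 and 12.6 rpm in the first and the second list.

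Counts of members past 2-fold moved as follows. From e12.5 to e15.5, 2 were higher with mRNA scaling, the second list or a pseudocount of 0.1 rpm, 2 were lower with hepatocyte marker scaling, and 1 was lower in the first list. From e15.5 to e18.5, 3 were higher in the first list, in the second list, with the highest cluster or with 10 rpm added, 2 were higher with hepatocyte marker scaling, and 1 was lower with that scaling, mRNA scaling, at least 10 reads or a pseudocount of 0.1 rpm. From e18.5 to P7, 1 was lower with mRNA scaling, the second list, the highest cluster or a pseudocount of 0.1 rpm. It was Asl with the highest cluster and otherwise Nags, whose call carries no weight because it has no listed cluster at P7. From P7 to adult, 4 were higher with mRNA scaling and 2 with the highest cluster or a pseudocount of 10 rpm. Of the related genes, 0 were lower with 10 rpm added and 1 with mRNA scaling or a fold of 4. Weighted by reads, the CDS share was 97.1%, 93.5% and 96.3% for e18.5, P7 and adult. In order of stage, the first list alone held 5 and 7 clusters in both earlier fetal tables and sites of 24, 22 and 155 miRNAs in the 3 fetal tables, and the second list held 57 clusters at e18.5. Sites of at least 7 bases left 49, 36, 159 and 307 miRNAs from e12.5 to P7, and the 100 most abundant miRNAs left 10, 12, 45, 64 and 73 over the 5 stages. The mRNA scaling of the related genes was chosen after seeing the data. The causes were not tested beyond what each setting leaves out.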
